A study of Mus musculus with 23 samples.

Results

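The 23 libraries of this study of mouse orbitofrontal cortex were ranked by their level of Ttr, and the 6 with the highest level were set against the 6 with the lowest, whatever their treatment, leaving 11 libraries on neither side. Ttr encodes transthyretin, a carrier of thyroid hormone and of retinol-binding protein, and is among the most abundant transcripts of the choroid plexus. All mice were male wild-type C57BL/6J animals of 8 weeks. One of 2 viral vectors, AAV6-GFAP-GFP or AAV6-GFAP-ZBTB7A, was injected into the orbitofrontal cortex on day 0. On day 21 some mice went through subthreshold social defeat stress and others a control condition, behaviour was tested on days 22 to 27, and virally infected tissue was dissected on day 28. In both vectors the GFAP promoter directs the transgene to astrocytes. The 4 groups are called GFP control (5 libraries), GFP stress (8), ZBTB7A control (5) and ZBTB7A stress (5), and each library also carries the number in its sample title. One label field names defeat stress for every library, so the groups follow the field for the stress condition. Nothing in the labels says more about how libraries relate to mice, so p-values measure only the spread between these samples.

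The choroid plexus is a folded epithelium that hangs in the brain ventricles and secretes cerebrospinal fluid. Its cells are specified by the transcription factor OTX2, move ions and water with transporters such as SLC12A2, take up folate through FOLR1, and release transthyretin, Klotho (Kl) and other proteins into the fluid. The ventricle walls beside it are lined by ependymal cells, whose motile cilia keep the fluid moving. The septum, the striatum and myelinated tracts border the lateral ventricle, and orbitofrontal cortex itself holds no choroid plexus.

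Because Ttr chose the sides, its values describe them and test nothing. On the high side, the normalized count of Ttr (reads divided by 1 size factor per library) was 7567 in GFP control 1, 4890 in GFP control 10 and 844 in GFP control 11. It was 655 in GFP stress 21 and 299 in GFP stress 3, with ZBTB7A control 6 between them at 449, and values of other genes on this side are given from the highest Ttr to the lowest. On the low side it was 7.14 in GFP stress 13, 6.25 in ZBTB7A stress 26, 5.08 in GFP stress 20, 4.45 in ZBTB7A stress 25, 4.11 in GFP stress 12 and 3.09 in GFP stress 22. GFP control 1 and GFP control 10 stood far above the other 4 high libraries. The library just outside the high side was GFP control 19, at 241, and the one just outside the low side was ZBTB7A stress 9, at 9.89. From the lowest to the highest library, Ttr spanned 2452-fold, and the lowest of the high side was 41.8-fold above the highest of the low side. The low values rested on 2 to 12 reads and the high values on 178 to 12016 reads, so the order within the low side is within counting error. ZBTB7A stress 9 rested on 6 reads, so the edge of the low side is not resolved either.

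The sides were unequal in treatment. The high side held 3 GFP control, 2 GFP stress, 1 ZBTB7A control and 0 ZBTB7A stress libraries. The low side held 4 GFP stress and 2 ZBTB7A stress libraries and none of either control group. All 6 low libraries were thus stressed, against 2 of 6 high ones, and high Ttr and absence of stress largely cannot be told apart in this comparison. By group, median Ttr was 844 (range 194 to 7567) among GFP control libraries and 14.1 (3.09 to 655) among GFP stress libraries. With the ZBTB7A vector the median was 162 (21.1 to 449) for controls and 9.89 (4.45 to 27.1) after stress. The sample numbers fall into 3 runs, 1 to 9, 10 to 17 and 19 to 26. The high side took 3, 2 and 1 libraries from these runs, and the low side 0, 2 and 4.

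Depth and the check of the vector were as follows. Recovered reads ranged from 12.5 M to 34.1 M on the high side and from 14.7 M to 51.9 M on the low side. The difference in mean log2 reads was -0.62 (exact two-sided permutation p = 0.134), and it was -0.82 (exact permutation p = 0.0455) without GFP stress 22. Genes detected differed by -499 (exact permutation p = 0.130), and by -685 (exact permutation p = 0.0390) without the same library. Under the GFP vector, Zbtb7a averaged 3834 ± 629 (SD, n = 5) without stress and 3934 ± 251 (n = 8) with it. Under the ZBTB7A vector the means were 3716 ± 247 (n = 5) and 3744 ± 173 (n = 5). The deposited counts therefore showed no higher Zbtb7a in libraries labelled with the ZBTB7A vector, and whether the transgene's reads were counted is not given in the sources used here. Between the Ttr sides its log2 difference was -0.01 ± 0.10 (SE), and its sign changed under several settings.

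The 4 other markers named for the choroid plexus followed Ttr only in part. Folr1, the folate receptor of the epithelium, had normalized counts of 88.8 in GFP control 1, 64.0 in GFP control 10, 15.5 in GFP control 11 and 2.87 in GFP stress 21. It had 33.2 in ZBTB7A control 6 and 8.39 in GFP stress 3. Its 6 low libraries ranged from 3.09 to 6.12, so 5 of the 6 high libraries were above every low one and GFP stress 21 was below them all. The log2 difference (high minus low, on log2 of the normalized count plus 1, as for every difference here) was 2.06 ± 0.65 (SE; limma, unadjusted p = 0.00762, adjusted p = 0.994). In bulk tissue such as this, fewer cells of a type and less RNA per cell cannot be told apart.

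Otx2, the transcription factor that specifies the epithelium, had 115, 38.6, 9.28, 8.60, 59.4 and 13.4 in the high libraries, in the order above. In the low libraries it had 7.14, 17.7, 1.91, 5.33, 1.37 and 6.17. The sides overlapped through ZBTB7A stress 26, and the log2 difference was 2.17 ± 0.68 (unadjusted p = 0.00701). Clic6, a chloride channel family member, had 410, 268, 143, 21.5, 390 and 88.9 against 105, 183, 22.9, 100, 11.9 and 61.7, a log2 difference of 1.39 ± 0.78. GFP control 11, GFP stress 21 and GFP stress 3 lay among the low libraries. Kl, which encodes the co-receptor Klotho, had 309, 213, 95.1, 57.3, 56.0 and 50.3 against 76.5, 165, 55.9, 80.0, 44.8 and 102. Only the first 2 high libraries were above every low one, and the log2 difference of Kl was 0.33 ± 0.47. It was -0.35 without GFP control 1 and GFP control 10, and -0.30 within the GFP stress libraries alone.

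Across all libraries, Folr1 spanned 51.2-fold, Clic6 39.4-fold and Kl 8.22-fold, against 2452-fold for Ttr. ZBTB7A stress 9, just outside the low side by Ttr, had 21.4 for Folr1, 44.5 for Otx2 and 206 for Clic6, each above every library of the low side. All 4 markers were above every low library in GFP control 1 and GFP control 10. In ZBTB7A control 6 Folr1, Otx2 and Clic6 were, but Kl, at 56.0, was below 4 of the 6 low libraries, and in GFP stress 21 none of the 4 was. The name ventricular content was thus not met by the high side as a whole, and the sides are called high-Ttr and low-Ttr below.

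**Figure D1:**
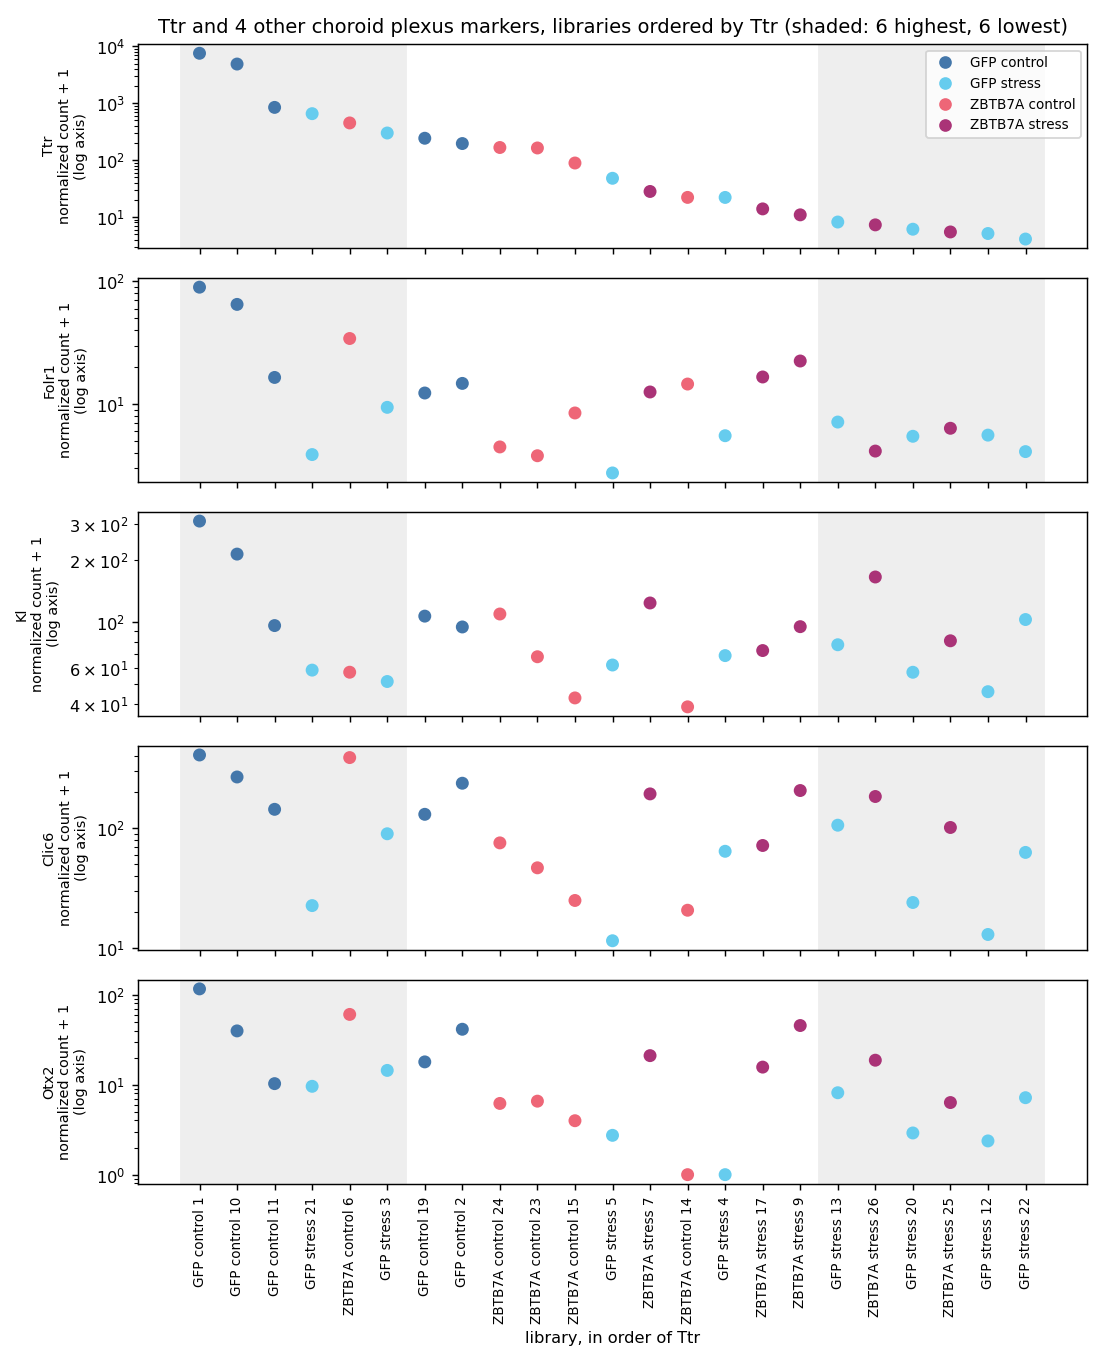
Normalized count plus 1 (log axis) of Ttr, Folr1, Kl, Clic6 and Otx2 in each of 23 libraries, ordered from the highest to the lowest Ttr, with colours for the 4 groups and shading over the 6 highest and 6 lowest libraries. Ttr falls from 7567 to 3.09 by construction, while GFP stress 21 is low for Folr1 (2.87) on the high side and ZBTB7A stress 9 is high for Otx2 (44.5) beside the low side.

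Over 23 libraries, log2 Ttr correlated with log2 Folr1 at Pearson's r = 0.588 (permutation p = 0.00303, adjusted over 4 markers 0.0121) and Spearman's rho = 0.423 (permutation p = 0.0459, adjusted 0.0673). For Otx2, r was 0.522 (permutation p = 0.0103, adjusted 0.0207) and rho was 0.466 (permutation p = 0.0263, adjusted 0.0673). For Clic6, r was 0.406 (permutation p = 0.0548, adjusted 0.0556) and rho was 0.414 (permutation p = 0.0505, adjusted 0.0673). For Kl, r was 0.405 (permutation p = 0.0556, adjusted 0.0556) and rho was 0.196 (permutation p = 0.369, adjusted 0.369). GFP control 1 and GFP control 10 were the 2 libraries farthest from the median Ttr. Without them, r was 0.249 for Folr1, 0.314 for Otx2, 0.191 for Clic6 and -0.09 for Kl. The relations were thus weaker without those 2 libraries, or of opposite sign for Kl. Leaving them out also narrows the range of Ttr, and the part of that was not tested. Within the 3 runs of sample numbers, r for Folr1 was 0.662, 0.823 and 0.0873. Within the GFP stress group it was -0.00258, and over the 11 libraries on neither side it was -0.383 (permutation p = 0.239).

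When all genes were compared between the sides, no gene passed. A gene was tested where at least 5 libraries reached a value of 10, and Ttr was left out. Of these 16384 genes, limma called 0 (0%) at a Benjamini-Hochberg adjusted p under 0.05. The unadjusted p was under 0.05 for 519 genes (3.17%), 365 above 0 (2.23%) and 154 below 0 (0.940%). The unadjusted p-values of all genes showed no excess near 0. edgeR on the recovered reads also called 0, with 725 genes at an unadjusted p under 0.05. DESeq2 called 11, with 807 at an unadjusted p under 0.05. On simulated counts of the same genes and libraries, the limma fit recovered 48% of genes changed 1.5-fold and 63% of genes changed 2-fold. Each gene was simulated independently, without the variation that genes share in the real libraries, so the shares recovered in real data may differ.

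The 11 genes called by DESeq2 were Calml4, C1ql2, Folr1, Lbhd2, Pnoc, Frem3, Igsf1, Crocc2, Rasd1 and Dnah11, above 0, and Ngp, below 0. These names come from an alternative fit. Ngp, a neutrophil granule gene, had normalized counts of 1879 in GFP stress 13 and 1192 in GFP stress 12, and 1.75 to 25.8 in the other 10 libraries. In 7 genes (0.0427%) every high library was above every low one: Chrm2, Igsf1, Lrrc51, Mro, Mtap, Zxda and Gm16010. In 6 genes (0.0366%) every high library was below every low one, among them Cyp4b1, Dynlt1a and Pde7a. Pde7a, a cyclic AMP phosphodiesterase, had 399 to 462 on the high side and 467 to 517 on the low side, a log2 difference of -0.22 ± 0.06. Other genes of small p on no list were Pnoc, the precursor of the peptide nociceptin, at 0.78 ± 0.19 (unadjusted p = 0.00107), and Smarca5, a chromatin remodeller, at 0.23 ± 0.06 (unadjusted p = 0.00244). Every one of these genes had a limma adjusted p of 0.994, so they are values and not calls.

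**Figure D2:**
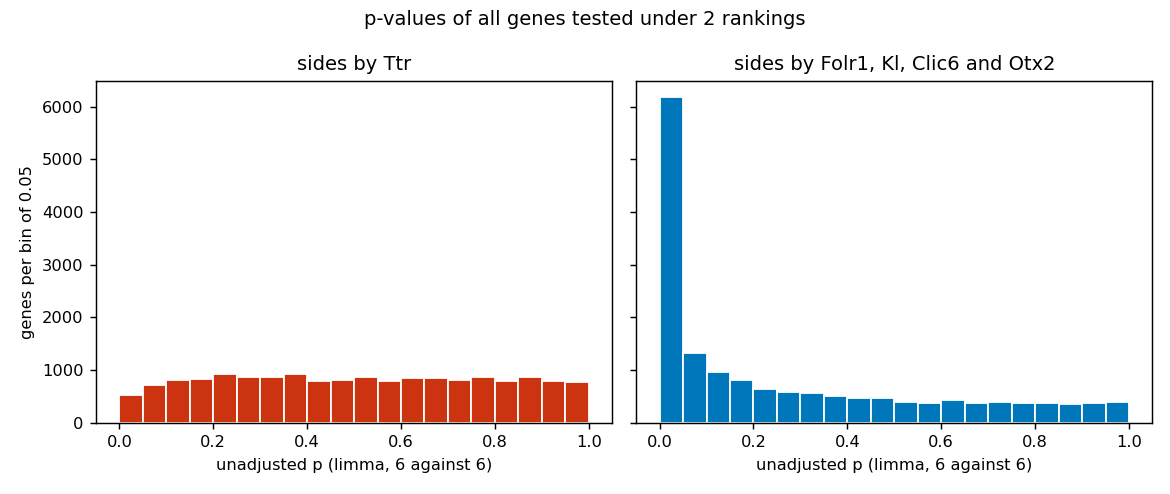
Number of genes in each bin of unadjusted limma p, 0.05 wide, for 6 against 6 libraries ranked by Ttr (left) and by the mean of Folr1, Kl, Clic6 and Otx2 (right). The left panel has no peak near 0 (519 genes under 0.05), and the right panel has a tall one (6180 genes under 0.05).

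Genes of the choroid plexus were grouped by role, and each list is given by counts and its median beside those of all genes, of which 48.8% had a difference above 0 and whose median was -0.00. Leaving out any 1 library moved the medians of the 4 choroid plexus lists and of the ependymal, septal, hypothalamic and glucocorticoid-induced lists by less than 1.5 times, and the other lists by more. No member of any list below passed the limma test. Of 16 transport genes tested, 12 were above 0 and the median log2 difference was 0.29. Among them Trpm3, a cation channel gene whose locus also hosts a choroid-enriched microRNA, had 1416, 1035, 715, 655, 1145 and 636 against 539 to 753, a difference of 0.54 ± 0.19. GFP control 1, GFP control 10 and ZBTB7A control 6 were the 3 libraries above every low one. Slc12a2, the sodium-potassium-chloride cotransporter, ranged from 1540 to 3374 against 1321 to 2164, a difference of 0.38 ± 0.19.

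Of 15 secreted and receptor genes, Kl included, 11 were above 0 and the median was 0.33. Prlr, the prolactin receptor, had 428, 173, 18.6, 8.60, 138 and 16.8 on the high side and 3.06 to 21.6 on the low side, a difference of 2.21 ± 0.87 (unadjusted p = 0.0244). Sostdc1, a secreted BMP and WNT antagonist, had 81.2, 48.0, 17, 7.16, 26.2 and 8.39 against 3.09 to 12.2, a difference of 1.55 ± 0.54. 1500015O10Rik, also called Ecrg4, a secreted peptide precursor, ranged from 30.1 to 268 against 11 to 58.1, a difference of 1.56 ± 0.57. In Prlr and Sostdc1 the same 3 libraries were well above the low side, while GFP stress 21 was within it.

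Of 6 transcription factor genes, 5 were above 0 with a median of 0.52. Besides Otx2, Msx1, a homeobox gene of the choroid epithelium, stood at 0.66 ± 0.36. All 8 epithelial structure genes tested were above 0, with a median of 0.39. Calml4, a calmodulin-like protein of brush borders, had 71.8, 32.0, 7.73, 5.73, 43.7 and 11.7 against 0.914 to 8.00, a difference of 2.70 ± 0.61 (unadjusted p = 0.000626), the largest difference above 0 of all genes tested. Rdh5, a retinol dehydrogenase, stood at 0.55 ± 0.19. Cldn3, a tight junction claudin, stood at 1.31 ± 0.69, but at -0.19 within the GFP stress libraries alone. Of the defining genes, Kcne2, Slc4a5, Wfdc2, Lmx1a, Lmx1b, Krt8, Krt18, Cldn2, Tmem72, Steap1, Epcam and Mfrp were too low to be tested, and Mfrp was at 0 in all 12 libraries.

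The upstream window of Otx2 is shown because OTX2 is the regulator among the markers. Of the windows at 4 start sites that RefSeq lists for the gene in build GRCm38.p6, it is the first that holds the letters marked. It was picked for that, and covers 250 bases before to 50 after the start, at chr14:48665060-48665359 on the minus strand. Capitals mark TAATCC, the core letters bound by OTX2, here on the opposite strand.
Otx2: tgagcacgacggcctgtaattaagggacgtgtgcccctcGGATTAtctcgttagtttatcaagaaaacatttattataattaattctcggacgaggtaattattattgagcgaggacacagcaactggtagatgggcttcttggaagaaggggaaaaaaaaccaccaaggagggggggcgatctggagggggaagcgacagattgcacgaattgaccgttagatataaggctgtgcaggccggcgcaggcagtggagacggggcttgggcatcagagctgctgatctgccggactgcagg
On either strand, TAATCC was present in 6 of 67 windows of the choroid plexus lists (8.96%) and in 7.06% of all 32851 windows. The share in the lists was thus close to that of promoters in general.

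Ependymal and motile cilium genes had a list median of 0.89, with 36 of 37 tested members above 0 and 16 at an unadjusted p under 0.05, all above 0. Dnah11, an axonemal dynein heavy chain, had 160, 148, 9.28, 112, 171 and 77.2 on the high side and 7.63 to 41.7 on the low side, a difference of 1.92 ± 0.65 (unadjusted p = 0.0115). GFP control 11 was low and the other 5 high libraries were above every low one. Enkur, a ciliary calmodulin-binding adaptor, had 129, 133, 42.5, 51.6, 164 and 88.9 against 34.7 to 72.5, a difference of 0.89 ± 0.32. Meig1, known from sperm flagellum assembly, stood at 1.15 ± 0.41, and Spag17, of the ciliary central pair, at 1.16 ± 0.42. The summed normalized count of the list ranged from 2884 to 8109 in the high libraries and from 2516 to 3736 in the low ones. Its level in a library (the mean of its members' log2 values, each centred over the 23 libraries) was 1.30 in GFP control 1, 0.97 in GFP control 10 and 1.37 in ZBTB7A control 6. It was 0.39 in GFP stress 3, but -0.77 in GFP control 11 and -0.78 in GFP stress 21, so 2 of the 6 high-Ttr libraries were among the lowest for ciliary genes.

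The Enkur window is shown because ciliary genes stood above 0 together. In build GRCm38.p6 it lies at chr2:21205316-21205615 on the minus strand, and capitals mark GTTGCC, letters from the X-box bound by RFX factors, which are known to control ciliary genes.
Enkur: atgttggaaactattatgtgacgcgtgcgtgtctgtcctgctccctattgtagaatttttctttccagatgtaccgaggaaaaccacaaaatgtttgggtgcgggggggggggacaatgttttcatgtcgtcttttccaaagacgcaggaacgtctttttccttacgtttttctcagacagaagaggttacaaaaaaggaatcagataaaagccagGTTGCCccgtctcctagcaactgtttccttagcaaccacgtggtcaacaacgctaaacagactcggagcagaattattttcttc
On either strand, GTTGCC was present in 20 of 40 windows of the ependymal list (50%), 8 of 67 of the choroid plexus lists (11.9%) and 12.5% of all windows. It was picked from 9 motifs searched after the windows had been seen. The longer GTTGCCA and GTTGCCAT, which contain it, were in 25% and 10% of ependymal windows against 4.38% and 1.35% of all. Of 3 longer X-box patterns with both arms of the palindrome, the strictest was in 0% of ependymal windows against 0.0700% of all, the next in 2.5% against 0.451% and the loosest in 7.5% against 1.29%. TAATCC was in 7.5% against 7.06%, the forkhead letters TGTTTAC in 7.5% against 3.65%, and the SOX letters ATTGTT in 10% against 10.7%. A match describes these letters only and is no evidence of binding.

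Genes of regions beside the ventricle also had medians above 0. All 10 septal genes were above 0, with a median of 0.83. Zic1, a zinc finger transcription factor of the septum, had 2698, 1997, 711, 722, 3270 and 376 against 331 to 878, a difference of 1.24 ± 0.48. Its relative Zic2 stood at 0.90 ± 0.32, and Trpc4, a cation channel of lateral septal neurons, at 0.63 ± 0.23. The septal level was 1.58, 0.76 and 1.74 in GFP control 1, GFP control 10 and ZBTB7A control 6 and between -0.68 and 0.00 in the other 3 high libraries.

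All 8 basal forebrain cholinergic genes were above 0, with a median of 0.90. That median was 0.45 without GFP stress 20, 0.53 without GFP stress 12, 0.52 without ZBTB7A control 6 and 1.62 without GFP stress 21. Ngfr, the p75 neurotrophin receptor, had 171, 87.9, 118, 64.5, 241 and 77.2 against 41.3 to 76.5, a difference of 0.90 ± 0.29 (unadjusted p = 0.00873). Gbx1, a homeobox gene, stood at 1.42 ± 0.64. Of 19 striatal genes, 18 were above 0 with a median of 0.43. The striatal median was 0.022 without ZBTB7A control 6, 0.029 without GFP stress 12, 0.028 without GFP stress 20, 0.70 without ZBTB7A stress 26 and 0.96 without GFP stress 21. Their spread within each side was far larger than that. Ppp1r1b, which encodes DARPP-32 of medium spiny neurons, had 6663, 10375, 31480, 2751, 53879 and 12009 on the high side and 2008 to 19046 on the low side, a difference of 0.72 ± 0.75. Syndig1l, another striatal gene, stood at 0.92 ± 0.90. The striatal level was 2.02 in ZBTB7A control 6 but -2.23 in GFP stress 21, both of the high side, and -2.54 in GFP stress 12 but 1.06 in ZBTB7A stress 26, both of the low side. The levels of striatal genes within the high side thus spanned nearly their whole range in the series.

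Of 13 thalamic and habenular genes, 10 were above 0, with a median of 0.39 that was 0.12 without GFP control 1. Tcf7l2, a thalamic transcription factor, had 504 in GFP control 1 and 129 to 215 in the other high libraries, against 101 to 195, a difference of 0.68 ± 0.28. Prkcd, a protein kinase C of thalamic and other subcortical neurons, stood at 1.05 ± 0.61 and at -0.61 within the GFP stress libraries alone. Among 5 hypothalamic genes tested, 3 were above 0, and Avp, Oxt, Pmch, Hcrt, Sim1 and Otp were too low to be tested. In the olfactory bulb list 8 of 10 genes were below 0, with a median of -0.38. Leaving out 1 library moved this median by over 1.5 times for 10 of the 12 libraries, from -1.05 without GFP stress 21 to -0.063 without GFP stress 20 and -0.091 without GFP stress 3. Eomes, a transcription factor of bulb projection neurons, had 592 in GFP stress 21 and 2.32 to 47.2 in the other high libraries, against 7.71 to 275. Its log2 difference of -1.19 ± 1.23 had the opposite sign within the GFP stress libraries (0.63).

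**Figure D3:**
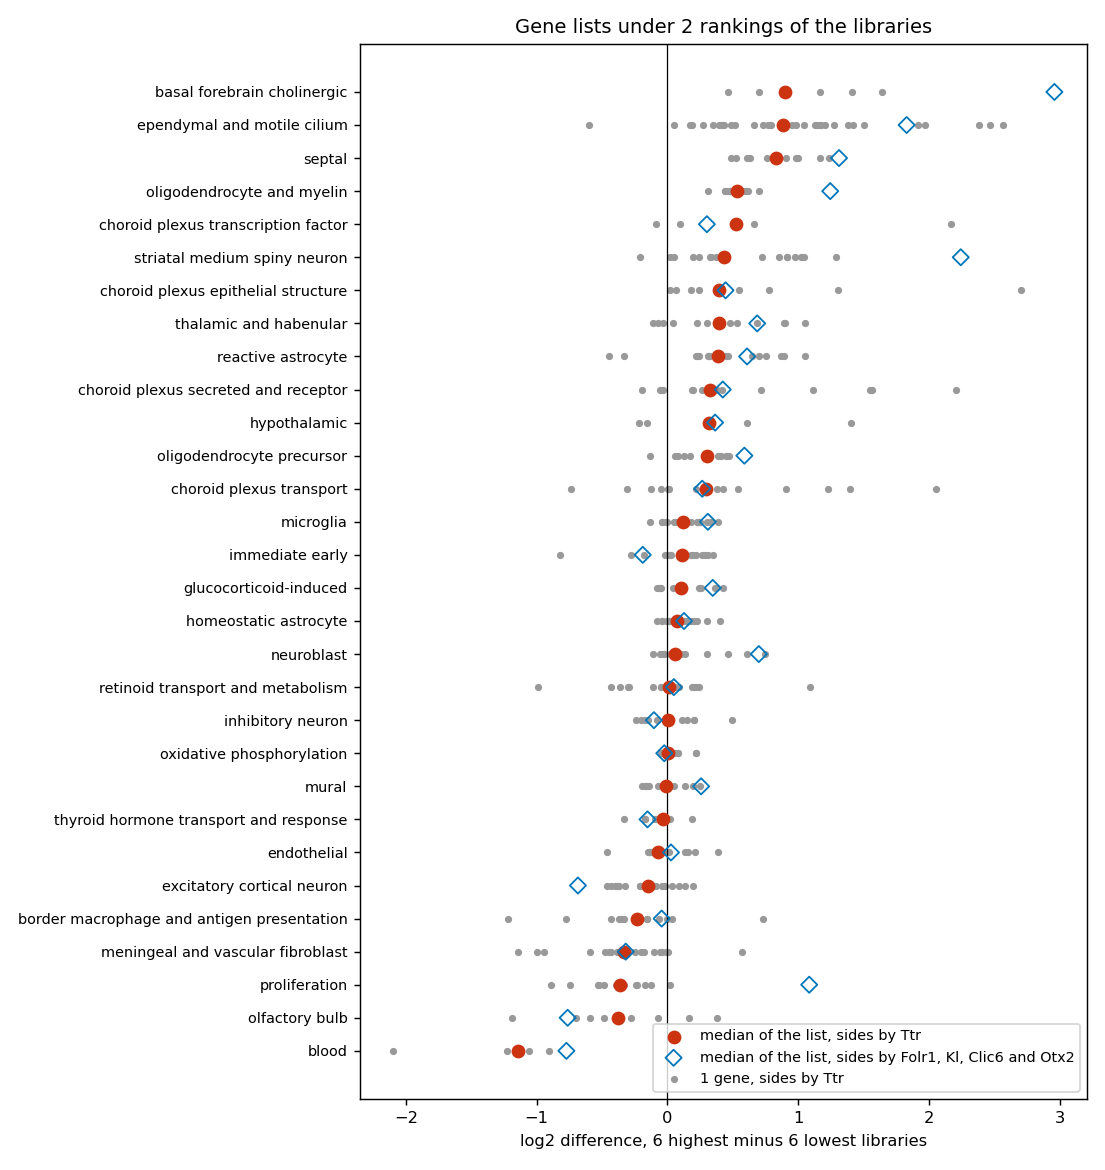
Log2 difference (6 highest minus 6 lowest libraries) of each tested member of 30 gene lists with the sides set by Ttr (grey points), the list's median (red), and its median with the sides set by the mean of Folr1, Kl, Clic6 and Otx2 (blue diamonds, those 4 genes left out). Ependymal, septal and myelin medians are above 0 in both rankings, while the striatal median is 0.43 by Ttr and 2.24 by the other markers.

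Among glial lists, all 20 oligodendrocyte and myelin genes were above 0, with a median of 0.53, though none had an unadjusted p under 0.05, and the median was 0.31 without GFP stress 20. Trf, transferrin made by oligodendrocytes and choroid plexus, had 9256, 16784, 4943, 4198, 14566 and 7292 against 2793 to 8133, a difference of 0.70 ± 0.37. Ugt8a, an enzyme of myelin galactolipid synthesis, stood at 0.53 ± 0.31. Of 11 oligodendrocyte precursor genes, 10 were above 0 (median 0.30, or 0.17 without GFP control 10), and Olig2, the lineage transcription factor, stood at 0.39 ± 0.19. Of 16 reactive astrocyte genes, 14 were above 0 (median 0.39). The reactive astrocyte median was 0.18 without GFP control 10 and 0.64 without GFP control 11. Gfap, the astrocyte filament gene whose promoter also drives the vectors, had 7060, 26388, 4330, 6268, 18044 and 11313 against 2840 to 11345, a difference of 0.76 ± 0.43. C4b, complement component 4, stood at 0.87 ± 0.51. Of 20 homeostatic astrocyte genes, 15 were above 0, but the median was 0.07, and Aqp4, the water channel of astrocyte endfeet, stood at 0.40 ± 0.16 (unadjusted p = 0.0241). The homeostatic median was 0.033 without GFP stress 22, 0.038 without GFP control 10 and 0.14 without GFP control 11. Of 20 microglial genes, 15 were above 0 with a median of 0.12, and C1qa, a complement subunit, stood at 0.33 ± 0.24. The microglial median was 0.21 without GFP control 11, but 0.034 when GFP control 10 and 0.037 when ZBTB7A control 6 was left out.

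Blood, meningeal and dividing-cell genes lay on the other side of 0. All 4 blood genes tested were below 0, with a median of -1.14 that was -0.66 without GFP stress 13. Alas2, the first enzyme of heme synthesis in red cell precursors, had 37.8 to 81.7 on the high side and 670, 100, 61.0, 43.6, 436 and 61.7 on the low side, a difference of -1.23 ± 0.61. Hbb-bs, a beta globin, likewise had 1047 in GFP stress 13 and 697 in GFP stress 12, with 78.7 to 210 in the other low libraries, a difference of -0.90 ± 0.57. The blood level was 3.97 and 3.14 in these 2 libraries, and at most 0.28 in any high-Ttr library. Ngp was high in the same 2 libraries, and its relation to the blood genes was not tested. The blood level was also 3.75 in ZBTB7A control 23, which was on neither side with a Ttr of 162.

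Of 23 meningeal and vascular fibroblast genes, 21 were below 0, with a median of -0.33 that was -0.19 without GFP stress 20. Nov, also called Ccn3, a secreted matrix protein that is made by cortical neurons as well, had 879 to 3143 against 2437 to 3364, a difference of -0.59 ± 0.25. Ogn, the meningeal proteoglycan osteoglycin, stood at -0.94 ± 0.57. In the list of border macrophage and antigen presentation genes 12 of 14 were below 0 (median -0.24). This median was -0.15 without GFP stress 20 and -0.36 without GFP control 11. In that list Pf4, a macrophage and platelet chemokine, had 4 to 19.2 against 4.63 to 67.3, a difference of -1.22 ± 0.52. Of 12 proliferation genes, 11 were below 0 (median -0.36). The proliferation median was -0.12 without GFP stress 13, -0.16 without GFP control 11 and -0.62 without GFP stress 20. Mki67, a marker of dividing cells, had 859 in GFP stress 13 and 39.4 to 307 in the other low libraries, against 62.6 to 220, a difference of -0.89 ± 0.59. Endothelial and mural medians were -0.07 and -0.01 (-0.11 to -0.042 and -0.12 to 0.047 with 1 library left out). Pglyrp1, an endothelial and neutrophil gene, had the lowest difference of the endothelial list, at -0.46 ± 0.23. It had 278 in GFP stress 13, 170 in GFP stress 12 and 109 to 119 in the other low libraries, against 73.7 to 128.

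Neuronal and general lists were closer to 0. Of 19 excitatory cortical neuron genes, 15 were below 0 with a median of -0.15. It was -0.029 without ZBTB7A control 6, -0.083 without GFP stress 20, -0.22 without GFP stress 22 and -0.26 without either GFP control 11 or ZBTB7A stress 26. Camk2a, a kinase of excitatory synapses, stood at -0.21 ± 0.13, and Neurod6, a cortical transcription factor, had 608 in ZBTB7A control 6 and 1554 to 2512 in the other high libraries, against 1514 to 2722, a difference of -0.43 ± 0.28. Of 12 inhibitory neuron genes, 6 were above 0 and 6 below, with a median of 0.005. Slc32a1, the vesicular GABA transporter, had the largest difference above 0 in that list, at 0.49 ± 0.25. The neuroblast median was 0.06, that of immediate early genes 0.11, that of glucocorticoid-induced genes 0.10 and that of oxidative phosphorylation genes 0.00. With 1 library left out, the first of these ranged from -0.030 (GFP stress 12) to 0.15 (GFP stress 13) and the second from 0.0005 (GFP stress 22) to 0.21 (GFP stress 12). The medians of inhibitory neuron and oxidative phosphorylation genes took either sign, between -0.027 and 0.053 and between -0.033 and 0.042. Sgk1, a glucocorticoid-induced kinase, stood at 0.26 ± 0.11 and Mt1, a metallothionein, at 0.36 ± 0.16. Cox5a, a cytochrome oxidase subunit, stood at 0.21 ± 0.11, near the largest of its list (0.22). In that list 11 of 24 genes were below 0.

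Genes tied to transthyretin's 2 cargoes did not separate the sides. Of 13 genes of thyroid hormone transport and response, 3 were above 0, with a median of -0.03 and no unadjusted p under 0.05. Thra, the main thyroid hormone receptor of neurons, had 12068 to 15346 against 13443 to 15815, a difference of -0.09 ± 0.08. Slc7a8, an amino acid and thyroid hormone transporter, stood at -0.17 ± 0.12. Of 18 retinoid genes, 10 were above 0 with a median of 0.01. With 1 library left out, the thyroid hormone median ranged from -0.078 (GFP control 10) to -0.0001 (GFP stress 13) and the retinoid median from -0.073 (GFP stress 20) to 0.055 (GFP stress 13). Cyp26b1, which degrades retinoic acid, had 135, 133, 292, 364, 47.2 and 139 against 196 to 562, a difference of -0.99 ± 0.41 (unadjusted p = 0.0330). Crabp1, a retinoic acid binding protein, stood at 1.09 ± 0.59 and Stra6, the receptor for retinol-binding protein, at -0.36 ± 0.26. These differences stood beside a Ttr difference of at least 41.8-fold between any high and any low library.

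**Figure D4:**
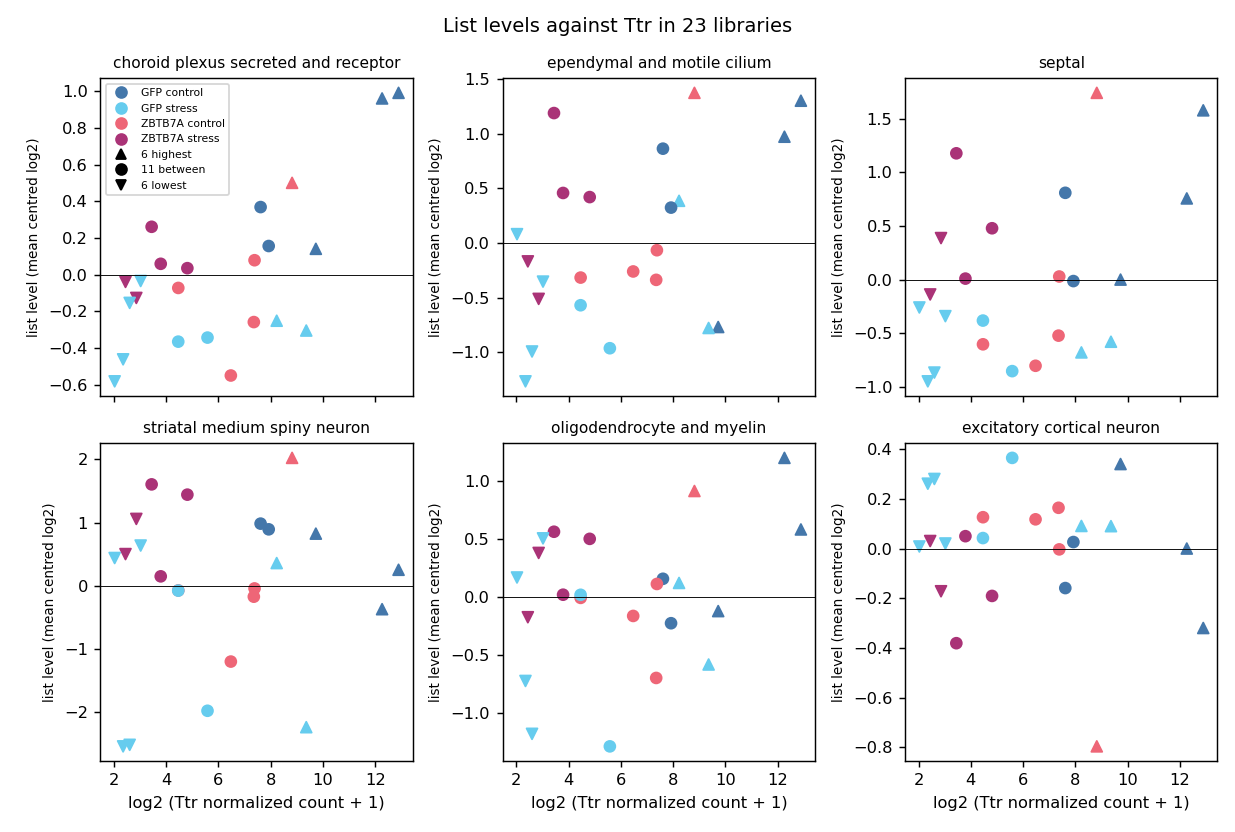
Level of 6 gene lists (mean of the members' log2 values, each centred over 23 libraries) against log2 of the Ttr normalized count plus 1, with colours for the 4 groups and triangles for the 6 highest (upward) and 6 lowest (downward) libraries. GFP control 1, GFP control 10 and ZBTB7A control 6 stand above 0 for ciliary, septal and myelin genes, and striatal levels range from 2.02 to -2.54 without following Ttr.

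The 11 libraries on neither side took no part in the comparison above. Over these, the slope of each gene on log2 Ttr passed in 0 of 16384 genes (limma, adjusted p under 0.05; 0%), with 632 at an unadjusted p under 0.05 (3.86%). On simulated counts this fit recovered 0% of slopes of 0.1 and 39% of slopes of 0.2 log2 units per log2 unit of Ttr, so small slopes could not have been seen. Of the 365 genes above 0 between the sides at an unadjusted p under 0.05, 115 (31.5%) had a slope above 0 in these libraries. Of the 154 below 0, 92 (59.7%) had a slope above 0, and of all genes 50.5% did. The differences between the sides were thus more often opposed than repeated in sign. Few of these slopes had an unadjusted limma p under 0.05: 11 of the 365 and 7 of the 154. Genes of a list often shared their sign, so these are not counts of independent genes. In the choroid plexus lists 10 of 16 transport, 8 of 15 secreted and receptor, 4 of 6 transcription factor and 5 of 8 structure genes had slopes above 0. Slopes above 0 were also found for 7 of 37 ependymal, 0 of 10 septal, 0 of 19 striatal, 0 of 20 myelin, 1 of 16 reactive astrocyte and 1 of 20 microglial genes. They were found for 20 of 23 fibroblast, 10 of 10 olfactory bulb and 4 of 4 blood genes. The 11 libraries differ in group along Ttr, from 2 GFP control libraries near the top to 3 ZBTB7A stress libraries near the bottom, and the part of group in these slopes was not tested.

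The GFP stress group alone has libraries on both sides (2 high, 4 low). Within it, list medians were 0.06, -0.00, 0.17 and 0.03 for choroid plexus transport, secreted, transcription factor and structure genes. They were 0.35 for ependymal, 0.13 for septal, 0.05 for striatal and 0.08 for myelin genes, and 0 genes were called. These 8 medians were closer to 0 than over all 12 libraries. Others were not: the olfactory bulb median was 0.78, of opposite sign, the border macrophage median -0.43, the proliferation median -0.43 and the neuroblast median 0.23. The blood median was -1.13, nearly as over all 12. Without GFP control 1 and GFP control 10, the 4 choroid plexus medians were 0.17, 0.13, 0.44 and 0.29 and the ependymal median was 0.56. Within the third run of sample numbers (1 high library, GFP stress 21, against 4 low), the ependymal median was -0.25, the striatal -1.98 and the basal forebrain -2.39, while the olfactory bulb median was 2.62. In the second run (2 against 2) they were 0.93, 1.02, 1.5 and -0.56. The first run has no low library and gives no value. Over all 23 libraries with group in the model, the slope on log2 Ttr passed in 0 of 16384 genes (0%), with 563 at an unadjusted p under 0.05 (3.44%). On simulated counts this fit recovered 50% of slopes of 0.1.

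The study's own contrasts were fitted with and without log2 Ttr as a covariate, and limma called 0 of 16384 genes (0%) in each of the 5 either way. For stress under the GFP vector, 1838 genes (11.2%) had an unadjusted p under 0.05 without the covariate and 503 (3.07%) with it. For the interaction of vector and stress the counts were 1216 (7.42%) and 865 (5.28%). For the vector in stressed mice they were 2635 (16.1%) and 2952 (18.0%), for the vector without stress 283 (1.73%) and 194 (1.18%), and for stress under the ZBTB7A vector 271 (1.65%) and 396 (2.42%). The count shrank most for GFP stress against GFP control, whose groups also differed most in median Ttr. It rose for stress under the ZBTB7A vector, although median Ttr was 162 without stress and 9.89 with it. Whether the change in count follows the difference in Ttr was not tested. In GFP stress against GFP control, Ttr and stress are partly confounded, and their parts cannot be told apart.

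Ranking the libraries by the other 4 markers gave a different picture. With the sides set by the mean log2 value of Folr1, Kl, Clic6 and Otx2, the high side was GFP control 1, GFP control 10, ZBTB7A control 6, ZBTB7A stress 9, GFP control 2 and ZBTB7A stress 7. The low side was ZBTB7A control 15, GFP stress 4, GFP stress 20, ZBTB7A control 14, GFP stress 12 and GFP stress 5. It shared 3 high and 2 low libraries with the ranking by Ttr. Of 16381 other genes tested, limma called 3990 (24.4%), 2066 higher (12.6%) and 1924 lower (11.7%). Ttr itself had 9.89 to 7567 on the high side and 4.11 to 87.8 on the low side, a log2 difference of 3.98 ± 1.55 (limma adjusted p = 0.0812; exact two-sided permutation p = 0.0390). It was not among the genes called. The tests in this ranking were added after the data were seen. The sides were set by 4 markers in the same values, which favours genes that vary with those markers. The calls below thus describe these sides and give no independent support.

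In this ranking 31 of 37 ependymal genes were called higher, with a median of 1.83, and 1 was called lower. Of 10 septal genes 9 were called higher, of 20 myelin genes 20, of 8 basal forebrain genes 8 and of 19 striatal genes 18, and the last list had a median of 2.24. Of 19 excitatory cortical genes 14 were called lower and 1 higher. Of the 4 choroid plexus lists without the markers, 5 of 14, 6 of 14, 1 of 5 and 5 of 8 members were called higher. In the first of them, transport, 1 gene was called lower. Of all genes tested, 12.6% were called higher and 11.7% lower. Of 13 neuroblast genes 10 were called higher, and of 12 proliferation genes 7. Calml4 rose by 3.23 ± 0.42 (adjusted p = 0.000427), Prlr by 3.15 ± 0.54 (adjusted p = 0.00253), Zic1 by 2.27 ± 0.22 (adjusted p = 0.000146), Dnah11 by 2.88 ± 0.36 (adjusted p = 0.000389) and Ppp1r1b by 2.24 ± 0.54 (adjusted p = 0.0118), all by limma. Neurod6 fell by 0.86 ± 0.22 (adjusted p = 0.0142) and Camk2a fell by 0.51 ± 0.10 (adjusted p = 0.00415).

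The striatal level moved with this ranking. It was -0.37 to 2.02 in the 6 high libraries and -2.54 to -0.07 in the 6 low ones, and with it as a covariate limma called 6 genes. With the run of sample numbers as a covariate 1822 genes were called. Only ZBTB7A control had libraries on both sides of this ranking. A fit with group as a covariate thus compares ZBTB7A control 6 with ZBTB7A control 14 and ZBTB7A control 15. It leaves 1 library on the high side, so its count of calls cannot show whether the separation holds within groups. Leaving out 1 library at a time gave 2828 to 4525. The separation was thus found between libraries ranked by the 4 other markers, whose sides also differed in striatal level, and not between libraries ranked by Ttr.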

How the data were processed

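The deposited table holds normalized counts, a signal that the authors made by dividing reads by 1 size factor per library. The tools named are DESeq2 2.11.40.6, featureCounts 2.0.1 and HISAT2 2.1.0, per the submitters' processing notes, with builds mm10 and mm9 in no stated role. RNA was polyadenylated and libraries were TruSeq v2, per the labels' protocols; strandedness of the counting is not given in the sources used here. Dividing by the step of each library gave whole reads, within 0.02, for 100% of the values. After 428 identical repeats were removed, 27178 genes were left.

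Values were log2(value + 1), so a fold change understates the change of low genes. A limma 3.58.1 fit (R 4.3.3, trended, robust) compared the sides, with a two-sided threshold of 0.05 on Benjamini-Hochberg adjusted p over 16384 genes. Correlations used 100000 permutations, or all orders where under 10 libraries. Alternatives included DESeq2 1.42.0 and edgeR 4.0.16 on those reads. The fits were tested on simulated data in which genes varied independently of each other.

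The sides, the 30 lists (474 symbols, 473 matched, 1 by a synonym) and the tests were chosen with earlier results of these data known. The rule for named genes took the 5 markers, Zbtb7a, Gfap, up to 4 members of each list by smallest p, and 5 genes on no list, those lowest in p among genes averaging at least 50. The text describes a choice among these made after their values were seen; Mro and Zxda, which the last part takes, are named only as genes whose sides do not overlap. The genes called by DESeq2 or with sides apart, and the promoter motifs, were also picked after seeing the data. Promoter sequences are from RefSeq, build GRCm38.p6, which listed windows for Otx2, Kl and Enkur.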

Additional observations from a re-analysis of the deposited data

Results flagged for a closer look

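In 112 sets of 6 values (each gene described, on each side), a library whose log2 value stood apart from the other 5 beyond Dixon's critical value of 0.625 was found 4 times; chance gives about 1 in 20. Dnah11 was 9.28 in GFP control 11, against 77.2 to 171 in the other high-Ttr libraries. Tcf7l2 was 504 in GFP control 1, against 129 to 215. Neurod6 was 608 in ZBTB7A control 6, against 1554 to 2512. C1qa was 2204 in GFP stress 13, against 1238 to 1495 in the other low-Ttr libraries.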

How the results depend on the processing

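The count of 0 genes between the Ttr sides was also 0 with a pseudocount of 5, a mean of 50 or more, an adjusted p under 0.1, TMM scaling, edgeR, array weights, empirical Bayes without the robust option, covariates for run, group or striatal level, and 4 or 8 libraries a side. It was 0 to 0 when each library was left out, and 0 without GFP control 1 and GFP control 10 or within GFP stress, both added after seeing the data. It was 1 without a filter (C330022C24Rik, lower), 11 with DESeq2 and 3994 with the sides set by the other 4 markers, which changes the libraries compared. For those sides, in settings added after seeing the data, 3990 became 6, 1787 and 1822 with striatal level, group and run as covariates, and 2828 to 4525 with 1 library left out. Of these, the fit with group compares only ZBTB7A control 6 with ZBTB7A control 14 and ZBTB7A control 15. With 1 library on the high side, its count cannot show whether the separation holds within groups. The slopes on log2 Ttr also gave 0 calls under every alternative run for them, edgeR and each library left out included. The study's contrasts with log2 Ttr as a covariate likewise gave 0 calls under every alternative run for them. Leaving out 1 library, the difference in log2 reads ranged from -0.82 to -0.46 and that in genes detected from -685 to -389.

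Signs reversed as follows; the cause was not tested. With group as a covariate, which equals GFP stress alone by construction, Kl was -0.30, Cldn3 -0.19, Thra 0.0055, Ppp1r1b -0.024, Prkcd -0.61 and Eomes 0.63. With run as a covariate, Ogn was 0.082, Eomes 0.051 and Zbtb7a 0.036. Without the 2 highest Ttr libraries, Kl was -0.35 and Zbtb7a 0.044. With 4 libraries a side, Stra6 was 0.023 and Zbtb7a 0.0026. With the other markers' ranking, Stra6 was 0.48 and Mki67 0.87. Zbtb7a was 0.0011 with DESeq2 and 0.012 with array weights, and with 1 library left out it ranged from -0.064 to 0.061, being 0.061 without GFP control 1, 0.0047 without GFP stress 21, 0.027 without GFP stress 13 and 0.015 without GFP stress 12.

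No paired analysis was possible because no sample number is shared between groups. The low-Ttr values rest on so few reads that neither their order nor the edge of the low side is resolved. The 6 libraries a side, all low ones stressed, limit every comparison.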
